A study of Homo sapiens with 2 samples.

Results

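The genes that encode the proteasome, the protease that degrades ubiquitin-tagged proteins, were described in untreated SH-SY5Y cells, a human neuroblastoma line of neuronal character that grows in culture. The members were the 50 protein-coding genes, of 33538 gene rows, whose symbol begins with PSMA to PSMG followed by a number. Of these, 48 were counted here as proteasome genes, which are subunits, assembly chaperones or regulators. The other 2, PSMC3IP and PSME3IP1, carry names derived from proteasome genes and were left out of that count. PSMC3IP acts in homologous recombination rather than in the proteasome. The cells came from 2 flasks of one unsynchronised culture, SplitA and SplitB, which were marked with separate antibody hashtags and sequenced as 1 pooled 3' single-cell library. No treatment, genotype or time point was compared. Cells of 1 flask that had at least 1000 detected genes were kept, 899 of 1179 in SplitA and 1195 of 1605 in SplitB, with a median of 6063 and 6346 UMIs (counted molecules) per cell. The adrenergic neuroblastoma transcription factors PHOX2A, GATA2, GATA3, HAND2 and ISL1 were detected in both flasks, whereas TH had 9 UMIs in each, and of 6 blood cell markers PTPRC, CD3D, LYZ and HBB had no UMI, CD79A had 0 and 4, and CD68 had 22 and 38. Of 6 fibroblast markers COL1A2 and DCN had no UMI, COL1A1, COL3A1 and LUM had 10 to 45 UMIs per flask, and PDGFRB had 84 and 104. The culture held no second cell type that should lack these genes, so the share of UMIs that came from free RNA could not be measured.

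The proteasome consists of a barrel, the 20S core, and a cap, the 19S regulatory particle. The core stacks rings of alpha subunits, which form the gate, around rings of beta subunits, of which PSMB5, PSMB6 and PSMB7 carry the cutting sites. In cells exposed to interferon these are replaced by PSMB8, PSMB9 and PSMB10 to form the immunoproteasome, which favours peptides for display on MHC class I. The cap has a base with ATPases (PSMC genes) that unfold substrates and a lid that removes ubiquitin. Transcription of the subunits is known to be coordinated, among others by NFE2L1, which binds antioxidant response elements.

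Promoter windows are printed for some of the interferon-responsive members: PSMB9 had no UMI, PSMB10 was detected, and PSME1 and PSME2 differed between cycle phases. The window of PSMB8, which had 1 UMI in each flask, is not printed. The results below do not depend on the windows. The sequences are the 250 bases before the RefSeq transcription start in GRCh38.p14, written 5' to 3' on the strand of the gene. Capitals mark every match, on either strand, to the antioxidant response element core TGACNNNGC, the CCAAT box, the ETS site CCGGAAGT, the interferon response element core GAAANNGAA or the gamma-activated site core TTCNNNGAA. PSMB10 lies at chr16:67936851-67937100 (minus strand), PSME1 at chr14:24135944-24136193 (plus strand), PSME2 at chr14:24146611-24146860 (minus strand) and PSMB9 at chr6:32853942-32854191 (plus strand).
PSMB10: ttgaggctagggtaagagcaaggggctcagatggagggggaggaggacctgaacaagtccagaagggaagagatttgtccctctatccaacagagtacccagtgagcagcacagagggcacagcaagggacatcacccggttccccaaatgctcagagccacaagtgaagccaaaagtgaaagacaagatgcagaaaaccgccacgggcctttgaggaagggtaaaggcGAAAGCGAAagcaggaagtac
PSME1: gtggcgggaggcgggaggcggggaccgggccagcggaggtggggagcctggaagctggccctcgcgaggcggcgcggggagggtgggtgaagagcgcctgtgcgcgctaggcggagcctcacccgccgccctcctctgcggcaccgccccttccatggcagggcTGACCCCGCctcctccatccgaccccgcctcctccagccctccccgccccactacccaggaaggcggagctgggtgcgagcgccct
PSME2: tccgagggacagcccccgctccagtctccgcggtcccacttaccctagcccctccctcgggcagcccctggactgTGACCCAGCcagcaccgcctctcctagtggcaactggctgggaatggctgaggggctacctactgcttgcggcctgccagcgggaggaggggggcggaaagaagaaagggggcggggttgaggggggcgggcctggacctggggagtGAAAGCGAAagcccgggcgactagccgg
PSMB9: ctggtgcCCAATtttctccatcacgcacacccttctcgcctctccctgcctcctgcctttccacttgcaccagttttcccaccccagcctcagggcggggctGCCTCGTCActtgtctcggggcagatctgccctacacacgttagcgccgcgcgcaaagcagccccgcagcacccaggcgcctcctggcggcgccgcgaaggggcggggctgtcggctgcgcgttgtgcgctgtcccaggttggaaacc

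A window of 250 bases before to 50 after a start was held for 42 of the 48 proteasome genes. The antioxidant response element core was present in 15 of them (35.7%) and in 16.1% of 27305 genes with a window. The ETS site was present in 10 (23.8%, against 4.95%), the interferon response element core in 8 (19%, against 9.86%), the gamma-activated site core in 8 (19%, against 9.38%) and the CCAAT box in 20 (47.6%, against 39.7%). The interferon response element core was matched in PSMB8, PSMB10, PSME1 and PSME2, and also in PSMA4, PSMB4, PSMC2 and PSMG4. PSMB8, with 1 UMI in each flask, matched the gamma-activated site core as well. The match in PSME1 ended in the bases after the start, which are not printed. In the printed bases PSMB10 had the interferon core alone, PSME1 the antioxidant core alone, PSME2 both, and PSMB9 the antioxidant core and a CCAAT box. These matches are descriptions of the letters in the windows and were not tested for function.

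Levels were first compared among the members. Summed UMIs are given as CPM, the count scaled by the UMI total of the flask, with the exact 95% Poisson interval, which covers counting error only. A UMI of a 3' library counts a molecule, so the values were not divided by transcript length. The members held 0.362% of the UMIs in SplitA and 0.356% in SplitB. Every kept cell had at least 5 members detected, and the median was 15 members per cell in each flask.

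The 7 constitutive beta subunits gave the highest summed level, 1115 CPM (1088 to 1143) in SplitA and 1069 (1047 to 1092) in SplitB. The alpha ring, with 7 of its 8 genes detected, followed with 856 CPM (833 to 880) and 842 (822 to 862). The 17 subunits of the 19S cap with a PSM symbol summed to 1029 CPM (1003 to 1055) and 1028 (1006 to 1050). The 20S core (1972 and 1911 CPM) exceeded this sum in both flasks. SEM1 (506 and 525 CPM) and the proteasome partner ADRM1 (94.8 and 85.8), which carry no PSM symbol, are not in the cap sum. The intervals of core and cap did not overlap, and no test was made because each flask gives 1 value.

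The beta ring was the most even subcomplex. Its highest member was PSMB5, the chymotrypsin-like subunit, at 275 CPM (262 to 289) in SplitA and 258 (247 to 269) in SplitB. Its lowest was PSMB2 at 93.6 (86.0 to 102) and 94.5 (87.9 to 101), a ratio of 2.94 and 2.73 between highest and lowest. PSMB4, PSMB6 and PSMB7 lay between 141 and 156 CPM in both flasks, with overlapping intervals.

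The alpha ring was the most uneven. PSMA7 was the highest of all members, at 429 CPM (412 to 446) and 415 (401 to 429), with a UMI in 87.3% of SplitA cells (95% exact binomial interval 85.0 to 89.4) and 86.2% of SplitB cells (84.1 to 88.1). It alone held 11.9% and 11.7% of the member UMIs. PSMA6 was the lowest detected alpha subunit, at 9.74 CPM (7.38 to 12.6) and 9.17 (7.20 to 11.5), a ratio of 44 and 45.2 to PSMA7. PSMA6 shares 14.1% of its exon bases with another gene row on the same strand and has 4 named pseudogenes, so its count is uncertain. PSMA2, PSMA1 and the chaperone PSMD9 share 17.2%, 26.7% and 14.9% of their exon bases with such rows and are uncertain too. PSMC1 and PSME2 share no exon bases but have 13 and 6 named pseudogenes, so their counts are also uncertain. The remaining alpha subunits PSMA3, PSMA4 and PSMA5 lay between 39.6 and 131 CPM. PSMA8, the testis alpha subunit, had no UMI in either flask. A floor of 3 UMIs equals 0.513 CPM in SplitA and 0.372 in SplitB, and the Poisson interval reached up to 0.630 and 0.457.

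**Figure D1:**
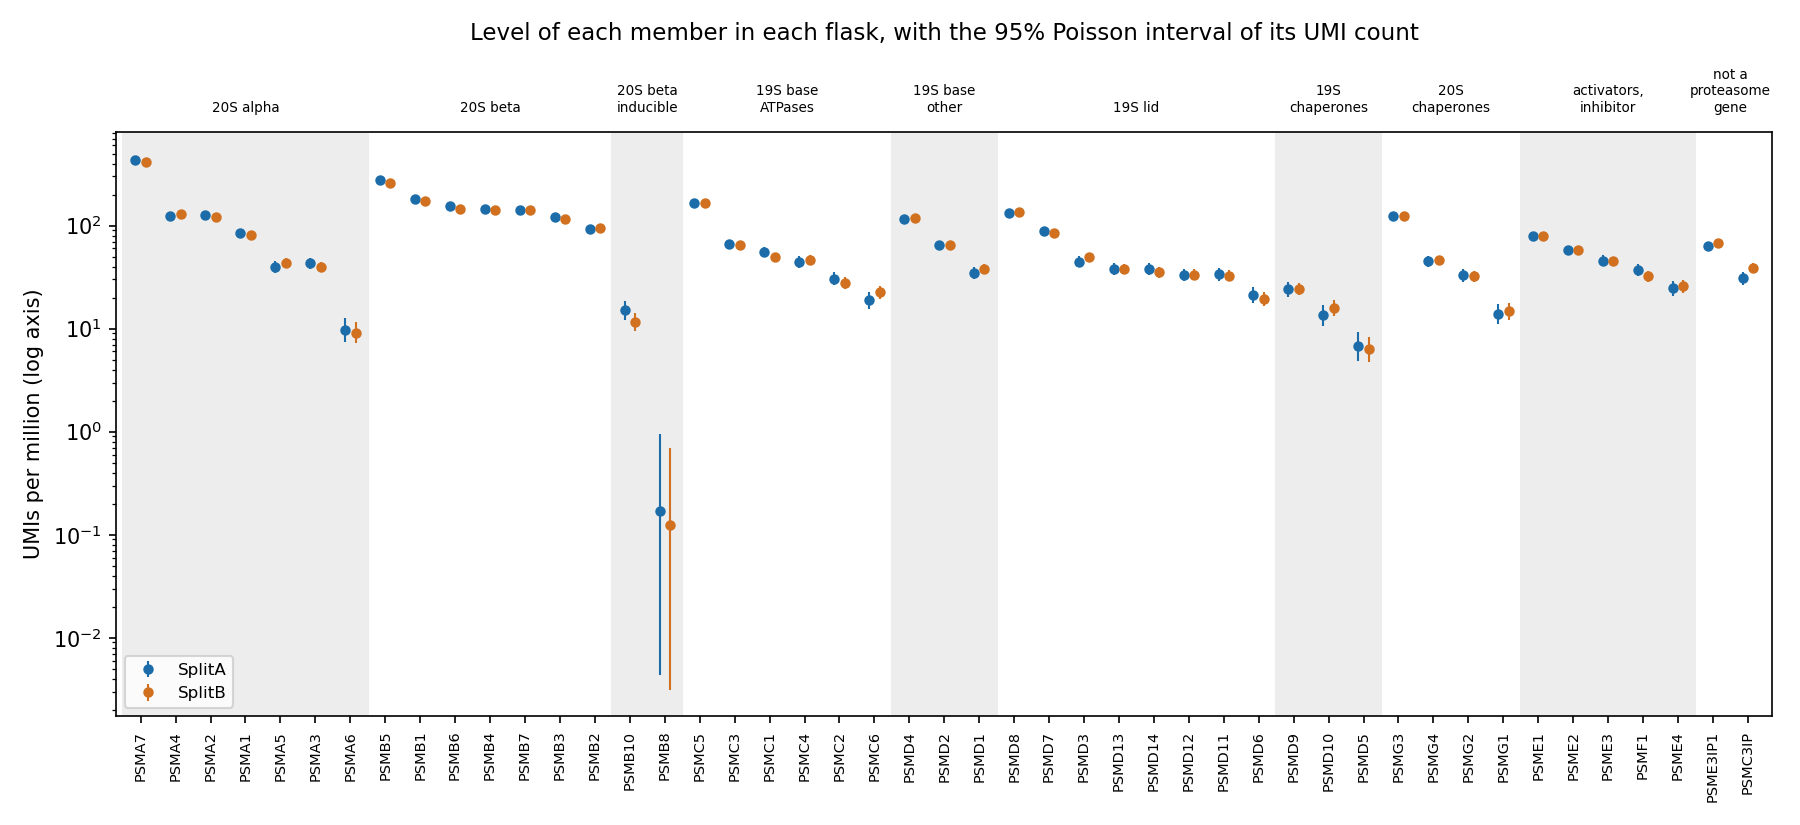
Level of the 47 members with a UMI in both flasks, as CPM on a log axis, with each flask as a point and the 95% Poisson interval as a bar. The alpha subunits range from 429 CPM (PSMA7, SplitA) to 9.17 (PSMA6, SplitB), the constitutive beta subunits stay between 93.6 and 275, and PSMB8 lies below 1.

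In the base of the cap, PSMC5 was the highest ATPase at 166 CPM (156 to 177) and 167 (158 to 176), and PSMC6 the lowest at 18.8 (15.4 to 22.7) and 22.6 (19.4 to 26.1). Among the other base subunits, the ubiquitin receptor PSMD4 stood at 117 and 118 CPM and the scaffold PSMD1 at 34.9 and 38.1. Among the lid subunits with a PSM symbol, PSMD8 was the highest at 133 and 136 CPM and PSMD6 the lowest at 21.2 and 19.5. The deubiquitinating enzyme of the lid, PSMD14, stood at 38.1 and 35.2 CPM, within the intervals of PSMD13 (37.9 and 37.7). The 6 ATPases therefore spanned a ratio of 8.85 and 7.41, and the 8 lid subunits with a PSM symbol 6.30 and 6.97, although the particle holds 1 copy of each.

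The chaperones that build the cap were lower than most of its subunits, whereas those of the core ranged widely. The cap chaperones PSMD9, PSMD10 and PSMD5 had 24.1, 13.5 and 6.83 CPM in SplitA and 24.3, 16 and 6.32 in SplitB. Of the core chaperones, PSMG3 reached 124 and 125 CPM, and PSMG1, with which PSMG2 pairs, had 13.8 and 14.8. POMP, which guides maturation of the beta ring and carries no PSM symbol, was at 286 and 291 CPM. SEM1, a small lid subunit that the symbol rule also missed, was at 506 and 525 CPM, above every member. Among the activators, PSME1 and PSME2, which form the cap that interferon induces, had 79.8 and 57.6 CPM in SplitA and 78.6 and 57.4 in SplitB. The single-gene activator PSME4 was the lowest at 24.6 and 25.7 CPM.

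The inducible subunits were compared with the constitutive subunits whose place they take. PSMB9 had no UMI in any kept cell, against 915 UMIs of PSMB6 in SplitA and 1161 in SplitB. With a floor of 3 UMIs per flask for PSMB9, PSMB6 was 305-fold and 387-fold higher. The exact 95% interval of the PSMB9 share of the pair reached up to 0.402% and 0.317%, which is above that floor. PSMB8 had 1 UMI in each flask, against 1610 and 2080 of PSMB5, a share of the pair of 0.0621% (95% exact interval 0.00157 to 0.345) and 0.0481% (0.00122 to 0.267). PSMB10 had 89 and 94 UMIs against 839 and 1149 of PSMB7, a share of 9.59% (7.77 to 11.7) and 7.56% (6.15 to 9.18). Over the pairs together, the inducible subunits held 2.61% of the UMIs in SplitA and 2.12% in SplitB. PSMB10 thus stood at 15.2 and 11.7 CPM while its partners in the immunoproteasome were at or near 0. PSMB10 shares 39.4% of its exon bases with a second gene row on the same strand, so its count is uncertain. PSMB11, the beta subunit of the thymus, had no UMI. Of the cells with PSMB10, 52 in SplitA and 57 in SplitB also had PSMB7, and 30 in each flask did not. Among all kept cells PSMB7 had a UMI in 57.8% and 59.4%.

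Several other genes of antigen presentation had few or no UMIs. TAP1 and HLA-B had no UMI, TAP2 had 5 and 20, HLA-E 5 and 8, and the transactivator NLRC5 11 and 10. HLA-C, at 5.47 and 5.70 CPM, and the light chain B2M, at 263 and 253, were detected. HLA genes share reads with near-identical copies, so their split is uncertain. Among the regulators of proteasome transcription, NFE2L1 stood at 33.3 and 32.0 CPM and its processing protease DDI2 at 7.86 and 7.69. NGLY1, which removes the sugars of NFE2L1, was at 6.49 and 7.31.

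The flasks were then set side by side. An absolute log2 ratio of at least 0.25 was reached by 2 of the 41 members that were detected in 10% or more of the cells in SplitA or SplitB, against 9.38% of 5626 such genes. These were PSMC6, with a log2 ratio of SplitA to SplitB of -0.26, and PSMC3IP, with -0.34, both higher in SplitB. The median ratio of the 41 members was 0.009, beside 0.002 for all 5626 genes. No test was possible with 1 library and 1 flask on each side.

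Members were next compared between cell cycle phases, since the culture was not synchronised. Cells were assigned from the expression of published S and G2M genes, none of which is a member. In SplitA 371 cells were scored G1, 277 S and 251 G2M, and in SplitB 504, 349 and 342. In SplitA and SplitB the median UMIs per cell were 5820 and 6092 in G1 and 5885 and 6136 in S. In G2M they were higher, 7066 and 6978. The part of this depth in the phase changes below was not tested. UMIs were summed per flask and phase, which gave 6 sums, and were fitted with edgeR's quasi-likelihood test with the flask as a block. p-values were adjusted by Benjamini-Hochberg over all 10599 genes tested, and a gene was called at an adjusted p under 0.05. Both flasks were in 1 library, and the block removed the difference between them. These p-values therefore set a phase difference against its variation between the 2 flasks, pooled in part over genes. They cover no spread between libraries. Of the members 46 were tested, while PSMA8, PSMB8, PSMB9 and PSMB11 had too few counts.

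In G2M against G1, constitutive beta subunits and the PSME1 and PSME2 activator were lower, and the chaperone PSMG3 and the scaffold PSMD1 were higher. Of the 46 members 16 were called (34.8%), beside 31.0% of all genes. Of these 12 fell (26.1%, beside 15.4% of all genes) and 4 rose (8.70%, beside 15.6%). The median log2 change was -0.10 over the members and 0.03 over all genes. Among the 44 tested genes counted as proteasome genes 12 fell and 2 rose, since PSMC3IP and PSME3IP1, which were left out of that count, were among those that rose. The levels of this paragraph and the next ones are TMM-scaled CPM, and the log2 changes are the fitted ones.

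Of the beta ring, 5 of 7 subunits fell (71.4%, beside 15.4% of all genes) and none rose (beside 15.6%). PSMB7 had 165 and 173 CPM in G1, 143 and 139 in S and 124 and 111 in G2M, in SplitA and SplitB respectively. All G1 values lay above all S values and these above all G2M values. Of all genes, the values of 2 phases did not overlap in 63.3% for G2M against G1, 55.8% for S against G1 and 47.6% for G2M against S. The log2 change of PSMB7 from G1 to G2M was -0.54 ± 0.09 (SE, edgeR adjusted p = 4.07e-09). With sums of cells thinned to 2000 UMIs the change was -0.18 (adjusted p = 0.438), and PSMB7 was not called. PSMB4 had 180 and 162 CPM in G1, 129 and 142 in S and 123 and 116 in G2M (log2 change -0.51 ± 0.09). PSMB1 had 199 and 194 CPM in G1, 200 and 189 in S and 148 and 139 in G2M (log2 change -0.46 ± 0.08), so that its S level lay with G1. PSMB5 and PSMB6 fell by 0.33 and 0.40 on the log2 scale. PSMB3 and PSMB2 had values of -0.02 ± 0.09 and 0.15 ± 0.10 and were not called.

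In the alpha ring 2 of 7 subunits were called (28.6%), near the 31.0% of all genes. These were PSMA5 and PSMA2, which fell by 0.65 and 0.45 on the log2 scale, while 15.4% of all genes fell. PSMA7, the highest member, had 401 and 380 CPM in G1 and 436 and 417 in G2M (log2 change 0.13 ± 0.05, edgeR adjusted p = 0.0503), and was not called. PSMA1, PSMA3 and PSMA6 had changes of -0.24 ± 0.11, -0.36 ± 0.15 and -0.33 ± 0.31, and PSMA4 one of 0.13 ± 0.09. None of these was called. In the cap, PSMD4, PSMD8 and PSMC4 fell by 0.49, 0.46 and 0.45 on the log2 scale. PSMD1 had 24.6 and 29.2 CPM in G1 and 40.2 and 44.5 in G2M (log2 change 0.65 ± 0.16, edgeR adjusted p = 0.000577). The remaining 13 of the 17 cap subunits were not called, while 31.0% of all genes were. The fitted changes of these 13 ranged from -0.45 to 0.36.

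**Figure D2:**
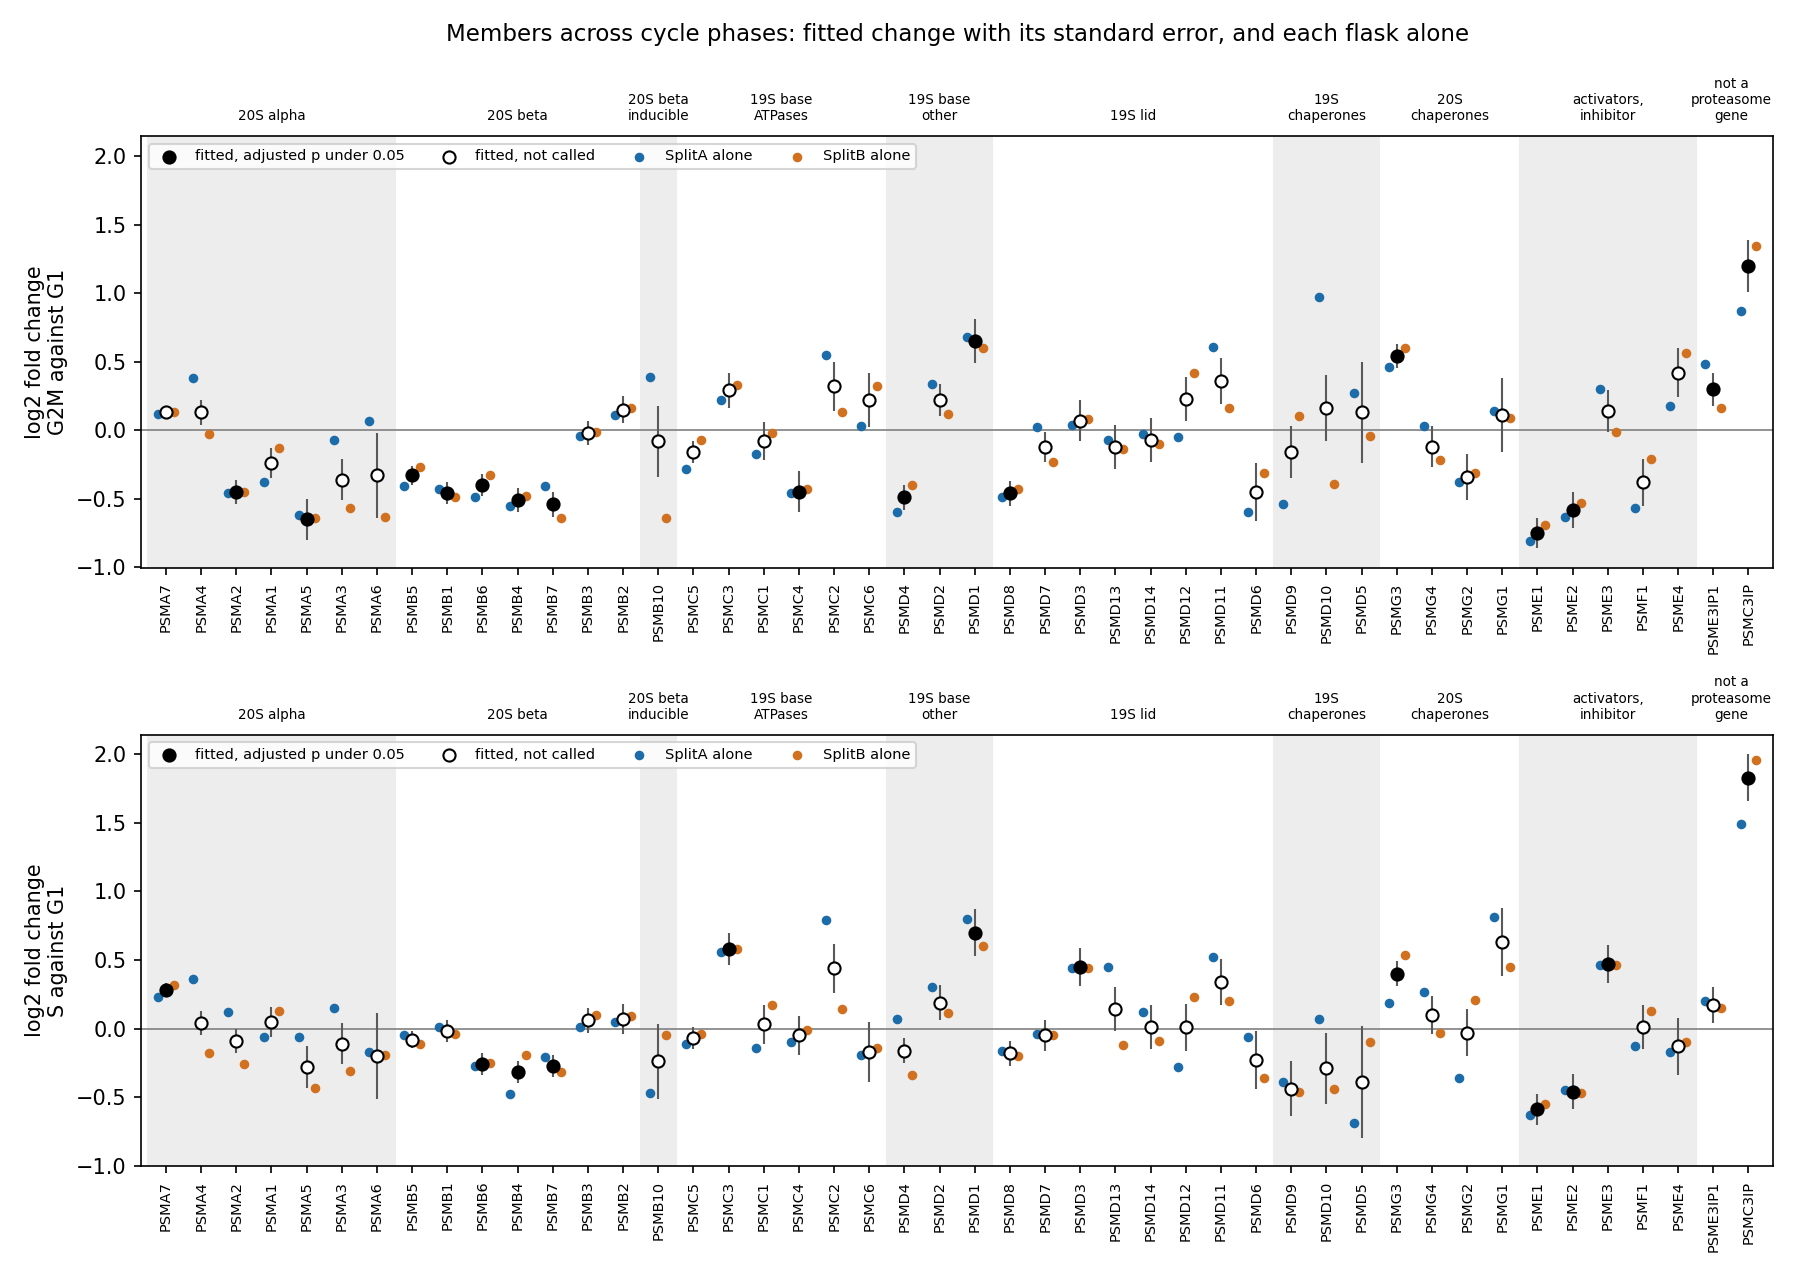
Fitted log2 change of the 46 members tested, with G2M against G1 above and S against G1 below, as large points with the standard error, filled where called, and the change in each flask alone as small points. The 5 called beta subunits lie between -0.54 and -0.33 in the upper panel, PSME1 and PSME2 lie at -0.46 or lower in both panels, and PSMC3IP is the highest point of both.

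PSME1 was the proteasome gene with the smallest p-value. It had 107 and 101 CPM in G1, 68.8 and 68.6 in S and 60.8 and 62.1 in G2M (log2 change from G1 to G2M -0.75 ± 0.11, edgeR adjusted p = 5.04e-10). PSME2 had 72.3 and 70.6 CPM in G1, 52.9 and 50.8 in S and 46.6 and 48.5 in G2M (log2 change -0.58 ± 0.13, adjusted p = 5.79e-05). In both genes the G1 values lay above those of the other phases in each flask. Values without overlap, in either direction, were found in 63.3% of all genes for G2M against G1 and 55.8% for S against G1. PSMG3 had 107 and 97.2 CPM in G1 and 148 and 147 in G2M (log2 change 0.54 ± 0.09, adjusted p = 3.15e-08), whereas PSMG1, PSMG2 and PSMG4 were not called. PSMC3IP, which is no proteasome gene, rose by 1.20 ± 0.19, and PSME3IP1 by 0.30 ± 0.12 (adjusted p = 0.0436).

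In S against G1, 12 of the 46 members were called (26.1%, beside 20.7% of all genes), of which 7 rose (15.2%, beside 10.9%) and 5 fell (10.9%, beside 9.79%). The median was -0.02 over the members and 0.00 over all genes. The G1 sums are the same as in the comparison above. Those that fell were PSME1, PSME2, PSMB4, PSMB7 and PSMB6, with log2 changes from -0.59 to -0.26. Those that rose were PSMC3IP (1.83 ± 0.17), PSMD1 (0.70 ± 0.17), PSMC3 (0.58 ± 0.12), PSME3 (0.47 ± 0.14), PSMD3 (0.45 ± 0.14), PSMG3 (0.40 ± 0.09) and PSMA7 (0.28 ± 0.05). PSMA7 had 471 and 475 CPM in S against 401 and 380 in G1. PSMC3, a base ATPase, had 82.9 and 79.5 CPM in S against 55.9 and 53.0 in G1. PSMC3IP had 49.4 and 66.9 CPM in S against 16.8 and 16.6 in G1, the largest change of any member.

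In G2M against S, 5 of the 46 members were called (10.9%), all lower in G2M, beside 7.71% of all genes (3.81% lower, 3.90% higher). These were PSMB1 (-0.44 ± 0.08), PSMC3IP (-0.63 ± 0.15), PSMA2 (-0.37 ± 0.10), PSMB5 (-0.25 ± 0.07) and PSMD4 (-0.33 ± 0.10). The median was -0.15 over the members. PSMD4 differed by -0.67 in SplitA and -0.06 in SplitB, so that its value rested mainly on SplitA.

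Summed over subunits, the beta ring had 1239 and 1173 CPM in G1, 1133 and 1081 in S and 971 and 939 in G2M. The log2 ratio of G2M to G1 was -0.35 in SplitA and -0.32 in SplitB. For the alpha ring it was -0.02 and -0.09, for the ATPases of the base -0.12 and 0.00, and for the lid -0.14 and -0.16. PSMA7, which did not fall, held 401 and 380 of the 830 and 850 CPM of the alpha ring in G1. The median fitted change over single subunits was -0.33 in the alpha ring (5 of 7 below 0) and -0.40 in the beta ring (6 of 7 below 0). Over all genes the median was 0.03. PSME1 and PSME2 together gave -0.74 and -0.63, and the core chaperones 0.23 and 0.26. Of the 4 core chaperones only PSMG3 was called, and 2 of their fitted changes were below 0.

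**Figure D3:**
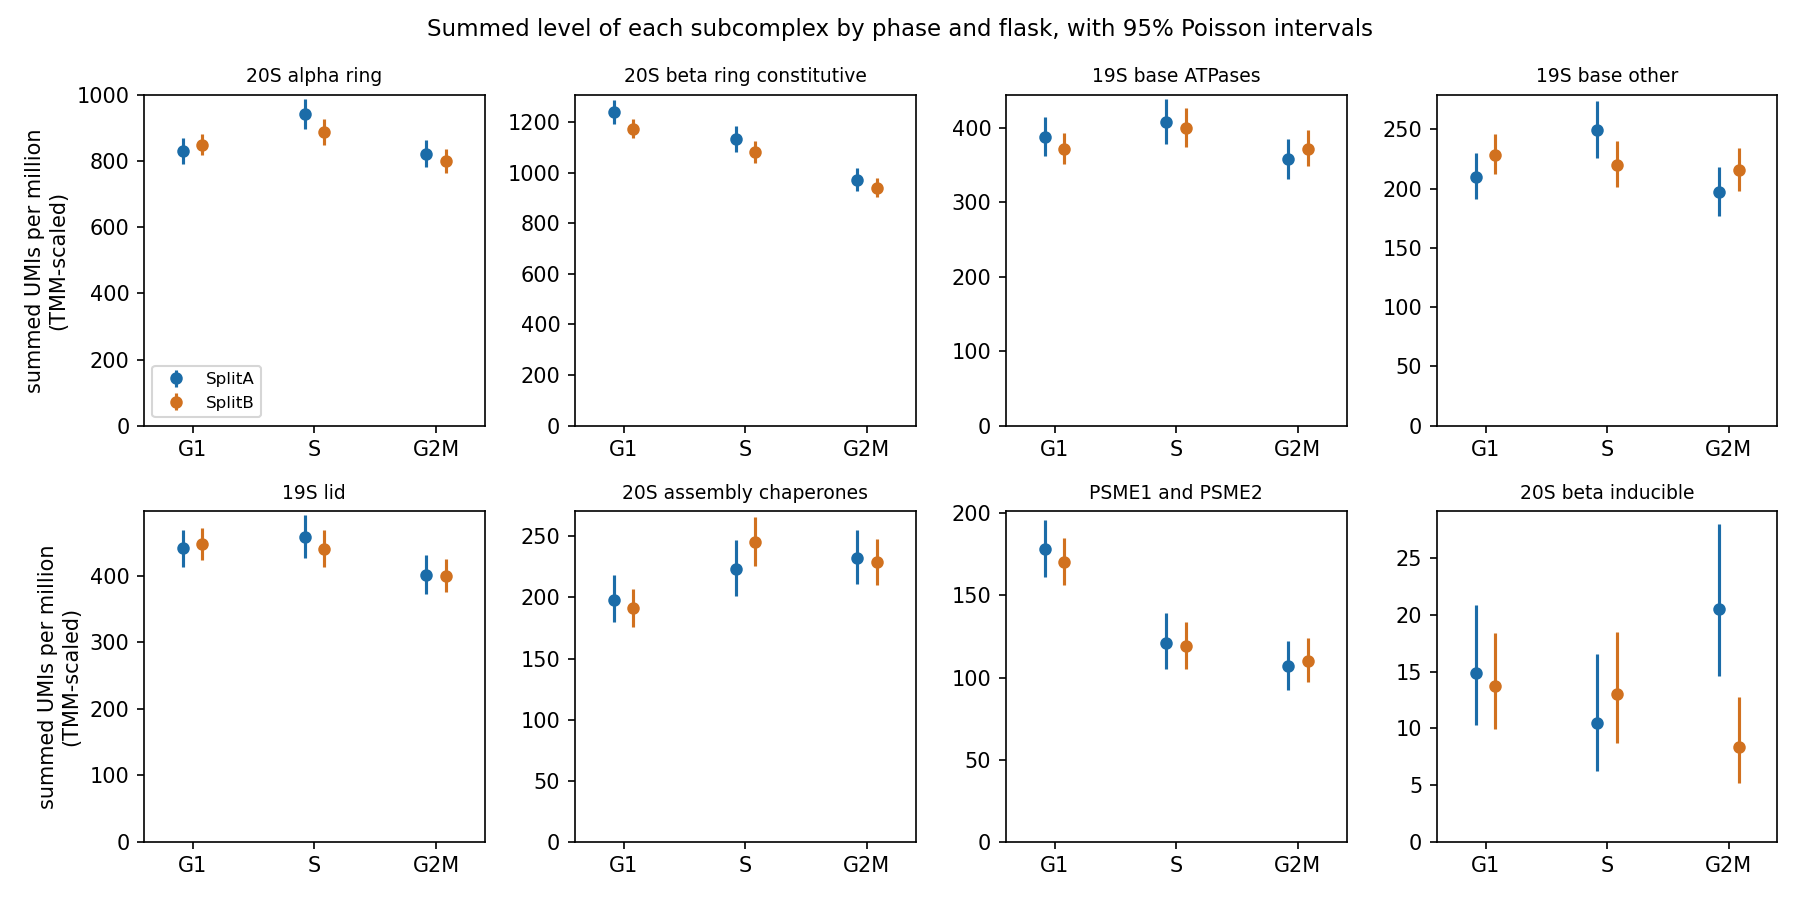
Summed TMM-scaled CPM of each subcomplex in the 6 sums of phase and flask, with 95% Poisson intervals. In the beta ring and in PSME1 with PSME2 both flasks are highest in G1 and lowest in G2M, whereas the inducible subunits (PSMB10 with the 2 UMIs of PSMB8) differ between the flasks in G2M.

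The number of members called in each direction depended on the scaling in part. With library size alone in place of TMM factors, the median of all genes in G2M against G1 moved from 0.03 to 0.15, and 11 members rose and 11 fell, while 2278 of all genes rose and 1112 fell. In S against G1, 9 members rose and 3 fell under that scaling, while 1498 of all genes rose and 724 fell. Each of the 16 members called in G2M against G1 with TMM factors kept its direction. DESeq2 called 11, 3 and 1 members in the 3 comparisons, where edgeR called 16, 12 and 5. Of all 10599 genes DESeq2 called 1037, 675 and 177, where edgeR called 3283, 2191 and 817. In G2M against G1, PSMB1, PSMB7, PSMG3 and PSMC4 were not called with sums of thinned cells, and PSMA5, PSME2, PSMD1 and PSMC4 were not called by DESeq2, while PSMB4, PSMB5, PSMB6, PSMA2, PSMD4, PSMD8, PSME1 and PSMC3IP were called in all 12 alternatives. In S against G1, PSMA7, PSME1 and PSMC3IP were called in all 12, and DESeq2 called no other member. With sums of thinned cells PSMB4, PSMB6, PSMB7, PSME2, PSME3, PSMD1 and PSMG3 were not called in S against G1, and edgeR called 0 members in G2M against S (6 at an unadjusted p under 0.05, and 1 called by DESeq2 without thinning). Of all 6794 genes tested in these sums, 930 were called in S against G1 and 256 in G2M against S. PSMG3 in S against G1 had a value of -0.01 in these sums, and PSMB7 one of -0.03. PSME3IP1 was called in 3 of 12 alternatives.

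Related genes were compared in the same fit. The ubiquitin genes RPS27A, which also encodes a ribosomal protein, and UBB fell in G2M against G1, with log2 changes of -0.35 ± 0.03 and -0.14 ± 0.04. Among genes of antigen presentation, HLA-C (-1.58 ± 0.43), TAPBP (-0.68 ± 0.22) and B2M (-0.54 ± 0.07) fell. Of 10 proteasome partners without a PSM symbol, the deubiquitinating enzymes UCHL5 (0.70 ± 0.20) and USP14 (0.45 ± 0.18) rose, and TXNL1 (-0.40 ± 0.12), ADRM1 (-0.29 ± 0.11) and POMP (-0.28 ± 0.06) fell. Among genes of ubiquitin delivery, NPLOC4, a cofactor of the segregase VCP, rose by 0.49 ± 0.17, and the shuttle UBQLN1 by 0.38 ± 0.15. Of 10 regulators of proteasome genes, NFYB rose (0.87 ± 0.22), NGLY1 fell (-1.0 ± 0.38) and the others, NFE2L1 included, were not called. Thus 5 of the 10 partners and 2 of the 10 regulators were called, beside 31.0% of all genes. The named calls nearest the threshold were USP14, UBQLN1 and NGLY1 (edgeR adjusted p = 0.0473, 0.0438 and 0.0300). In SplitA and SplitB alone USP14 had 0.13 and 0.66, UBQLN1 0.69 and 0.18, and NGLY1, with 38 and 59 UMIs, -0.39 and -1.35.

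The anaphase-promoting complex is the ubiquitin ligase that hands mitotic proteins to the proteasome. In G2M against G1 its ubiquitin-conjugating enzyme UBE2S rose by 1.46 ± 0.04 and its subunits CDC27 and ANAPC7 by 1.10 ± 0.21 and 0.99 ± 0.21. UBE2C and CDC20 were among the genes that assigned the phases, so their values and counts over the complex are not given. Of the 8 CCT chaperonin genes, another ring complex, CCT5 rose (0.61 ± 0.11) and CCT3 fell (-0.45 ± 0.07). The other CCT genes were not called, while 31.0% of all genes were.

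Co-variation was measured over the cells of a flask after each cell was thinned to 2000 UMIs, which left out 3 cells. The index is the variance of the summed members over the sum of their variances and is 1 where genes vary without covariance. It was 2.13 in SplitA and 2.07 in SplitB for the members, beside 2.36 and 2.02 for the 8 CCT genes and 22.5 and 23.8 for 87 cytosolic ribosomal protein genes. The index grows with the number of genes and with their counts. Thinned cells held 0 to 26 member UMIs in SplitA and 0 to 30 in SplitB, with a median of 7 in each. Within subcomplexes the index was 1.34 and 1.32 for the lid, 1.33 and 1.29 for the ATPases, 1.20 and 1.14 for the alpha ring, 1.16 and 1.18 for the beta ring and 0.971 and 1.02 for the core chaperones.

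Pairs of members were only weakly correlated. Over 231 pairs of the 22 members with a UMI in at least 10% of thinned cells, the median Pearson r was 0.034 in SplitA and 0.033 in SplitB, with a range from -0.061 to 0.170 and from -0.060 to 0.170. The median over 1721440 pairs of all 1856 genes so detected was 0.000 and 0.001. At these counts an r of this size is no finding for a single pair. Sums over many genes carry less counting error than single genes, so their r cannot be set against that of pairs. It was 0.37 and 0.41 between core and cap, 0.23 and 0.17 between the rings and 0.31 and 0.24 between base and lid. Core and core chaperones had r = 0.02 and -0.01. The core was related to CCT (0.35 and 0.38) nearly as closely as to the cap, and inversely to ribosomal protein genes (-0.44 and -0.42). The cap had a higher r with CCT (0.50 and 0.50) than with the core. All these values come from cells of 1 library with a fixed total of UMIs.

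The member most like the rest was PSMA7, with r = 0.259 in each flask to the sum of the other members, followed by PSMB1 (0.214 and 0.284). PSMG3 (0.050 and -0.037) and PSME3IP1 (0.009 and -0.007) were least like it. The 10 other genes with the highest mean r to the summed members were TUBA1A (0.504 and 0.486), HSP90AA1 (0.510 and 0.449), ACTB, PKM, MT-ND3, HSP90AB1, TUBA1B, MT-ND2, MT-CO3 and MT-CO1, the last with 0.440 and 0.343. They include 4 mitochondrial genes, so that the mitochondrial share of a cell was examined.

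The summed members of thinned cells had r = 0.456 and 0.355 with the mitochondrial share of UMIs and -0.434 and -0.440 with the log10 of the UMIs before thinning. Cells of each flask were ordered by UMIs and cut into 5 bins of equal size. In the bin with the fewest UMIs the mean was 11 ± 5.57 (SD, 180 cells) member UMIs in SplitA and 11.1 ± 5.40 (239 cells) in SplitB. In the bin with the most it was 6.34 ± 3.64 and 6.20 ± 3.14, and the bins between lay from 6.56 to 7.72. In bins made by the mitochondrial share the mean was 7.97 and 8.60 in the lowest, 6.56 and 6.42 in the last but one and 10.3 and 9.97 in the highest, so that both ends lay above the middle.

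A total of 174 kept cells, 70 in SplitA and 104 in SplitB, had 15% or more of their UMIs on the 13 mitochondrial protein-coding genes. The rule used here kept them. They had a median of 2704 and 2836 UMIs, against 6329 and 6579 in the others. In CPM of the UMIs that were not mitochondrial, the members had 10381 and 9016 in these cells against 3785 and 3748 in the others. The ratio was 2.74 and 2.41. These ratios, and all that follow for these cells, compare shares of a total that was itself smaller in these cells. As plain counts, the members had 1657 UMIs in 70 cells of SplitA, against 19502 in the 829 others. In SplitB they had 2284 in 104 cells, against 26435 in 1091. A higher ratio therefore does not mean more member UMIs per cell. The cap differed more (4.08-fold and 3.41-fold) than the core (2.46-fold and 2.23-fold), and the beta ring (2.05-fold and 1.89-fold) less than the alpha ring (3.0-fold and 2.67-fold). CCT genes were 5.91-fold and 4.75-fold higher, and ribosomal protein genes stood at 0.433 and 0.481 of the level in the others.

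Of 43 members with more than 3 UMIs in each group of cells, 38 (88.4%) were higher in these cells in both flasks, beside 71.6% of 5851 genes. The limit left out genes with few UMIs in the small group, which raises both shares. PSMB10 (3 and 0 UMIs against 86 and 94) and PSMD5 (1 and 2 against 39 and 49) were left out in this way. The median log2 ratio of the 43 members was 1.32, beside 0.79 over the 5851 genes. PSMC2, an ATPase of the base, was 7.85-fold and 6.54-fold higher, PSMD6 7.75-fold and 5.78-fold, and PSMD2 6.87-fold and 5.18-fold. PSMB5, the catalytic subunit, was 1.49-fold and 1.36-fold higher. PSMG3 had ratios of 1.15 and 0.623, PSMG4 of 0.876 and 1.01 and PSMC3IP of 0.917 and 0.819. Cells were grouped here by a measure of the same libraries, with no replicate of the grouping, so no test was made.

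**Figure D4:**
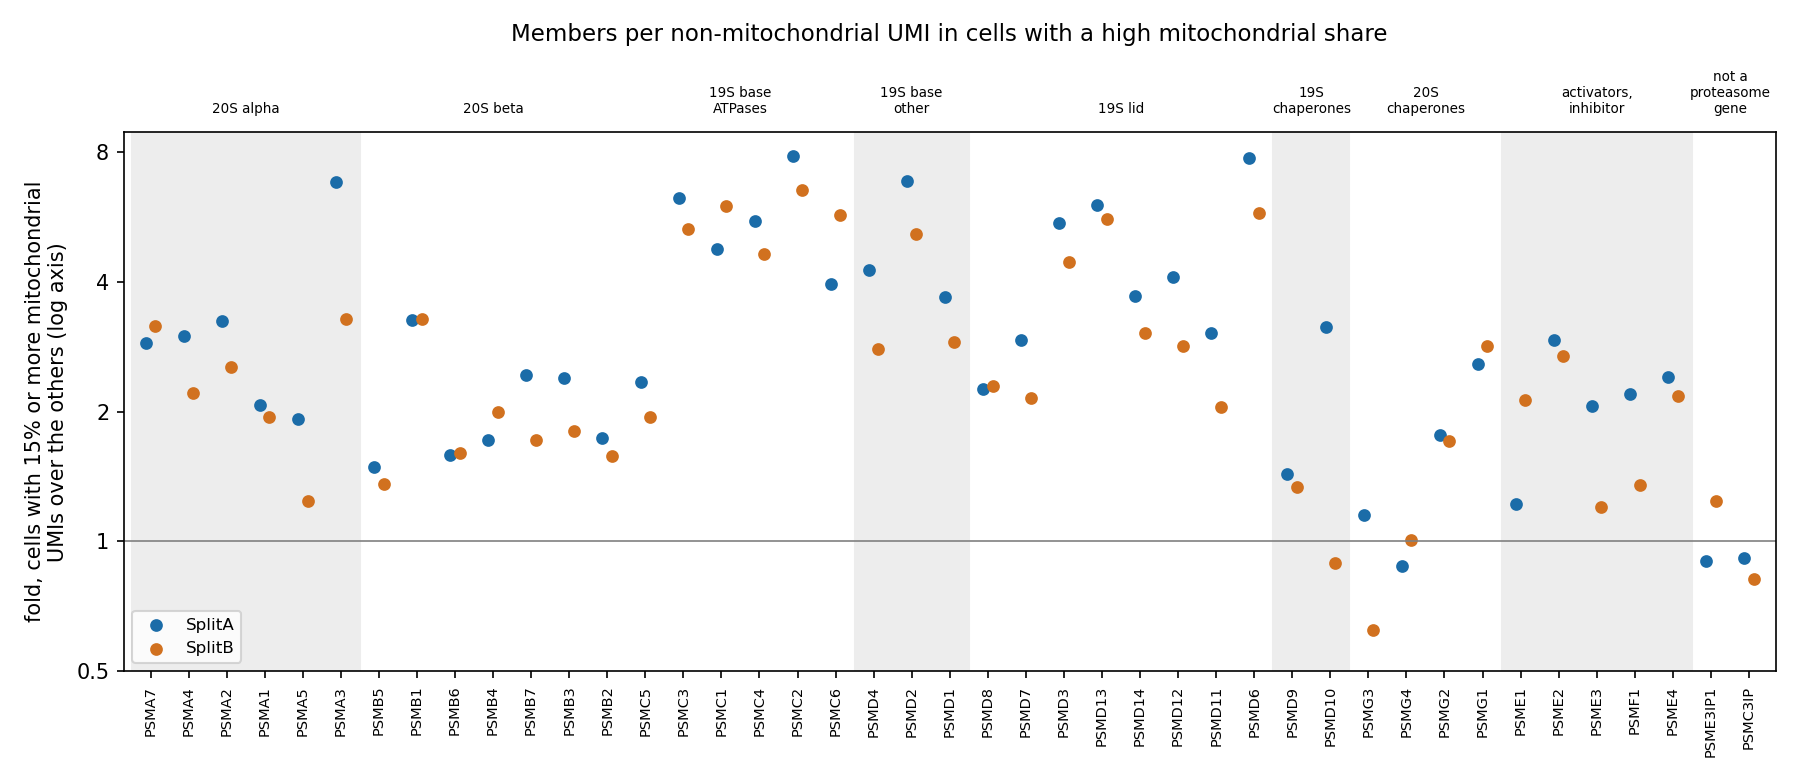
Ratio of the level per non-mitochondrial UMI in cells with 15% or more mitochondrial UMIs to that in the other cells, on a log axis, for the members with more than 3 UMIs in each group, with each flask as a point. Subunits of the 19S base and lid reach 7.85, the beta subunits stay at or below 3.29, and PSMG4 and PSMC3IP lie near 1.

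Cells with a high mitochondrial share were scored S in 54.3% and 45.2% of cases, against 28.8% and 27.7% of the others. Without them, the index was 1.52 and 1.64, the median pairwise r was 0.017 and 0.022, and r with the mitochondrial share was -0.168 and -0.206. The summed members had r = 0.228 and 0.167 with the S score and 0.087 and 0.062 with the G2M score over all kept cells, and 0.071 and -0.023 with S and -0.006 and -0.027 with G2M without these cells. The phase comparisons called 17, 9 and 4 of 46 members without them, where all kept cells gave 16, 12 and 5. Of all genes, 3157, 1947 and 731 of 10416 were called without them, where all kept cells gave 3283, 2191 and 817 of 10599. In S against G1, PSMC3, PSMD3 and PSME3 were then no longer called, and PSMA7, PSMD1, PSMG3 and PSMC3IP were. In G2M against G1 the 5 beta subunits, PSME1 and PSME2 were called in both.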

How the data were processed

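The mRNA of cells from 2 hashtagged flasks was measured in 1 pooled 3' CITE-seq library. The authors mapped reads to hg38/GRCh38 with STAR 2.7 and deposited raw UMI counts per gene and cell from Cell Ranger 4.0.0. The gene annotation version is not given in the sources used here. A cell was assigned to a flask where one hashtag count was at least 3 times the other and the other at most 185. Cells with at least 1000 genes were kept, with 1801 to 27205 UMIs each. No filter on the mitochondrial share and no doublet caller was applied, so doublets within a flask were not removed. The 95 cells that met the hashtag rule for neither flask were left out, 73 of them with at least 1000 genes.

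Phases were scored with Seurat 5.3.0. UMI counts were summed per flask and phase and fitted with edgeR 4.0.16 (TMM, filterByExpr, quasi-likelihood test, flask as a block because each flask gives 1 sum to each phase), with Benjamini-Hochberg adjustment over all genes tested. Alternatives changed the scaling, the filter on low counts, the tool (DESeq2 1.42.0), the block, the cycle gene list, the depth of cells, the hashtag limit, the gene minimum and the mitochondrial share. Co-variation used cells thinned to 2000 UMIs, with Python 3.11.15 and scipy 1.17.1. Scripts were tested on simulated data. Intervals are exact Poisson or binomial at 95% and cover counting error only, and a count of 0 was given a floor of 3 counts. Shared exon bases were taken from GENCODE release 44 and promoter windows from RefSeq (GRCh38.p14). Named were the highest and lowest member of each subcomplex, the inducible subunits with their counterparts, the members called, those past the flask ratio, at most 5 called genes of each related list and the 10 other genes most like the members. Other genes were named where a description needed them, after their values were seen. The members and gene lists were chosen with earlier results of these data known. Some genes of the marker and related lists are not reported here, and no count is given for a list that holds one.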

Additional observations from a re-analysis of the deposited data

Results flagged for a closer look

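Signals of these genes also appeared in cells and rows that the comparisons did not use. The members held 0.332% of the UMIs in 73 cells with at least 1000 genes that the hashtag rule assigned to neither flask. In the kept cells they held 0.358%. In 690 cells of a flask with under 1000 genes they held 0.651%, and these cells had a median of 1406 UMIs and a median mitochondrial share of 35.0%. The part of the mitochondrial share in that value was not tested. The antisense gene PSMA3-AS1 had 278 UMIs in SplitA and 423 in SplitB, against 252 and 322 of PSMA3 itself. PSMG3-AS1 had 88 and 117 UMIs, against 725 and 1005 of PSMG3.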

How the results depend on the processing

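In S against G1, sums of thinned cells gave 6 called members and DESeq2 3, beside 12. Of all genes they called 930 of 6794 and 675 of 10599, beside 2191 of 10599. In G2M against S the count was 8 with RLE factors, 8 with the updated cycle list, 11 with a minimum of 500 genes, 1 with DESeq2 and 0 with sums of thinned cells (edgeR, 6 members at an unadjusted p under 0.05), beside 5. In the same order, 843 of 10599, 841 of 10551, 990 of 10627, 177 of 10599 and 256 of 6794 genes were called, beside 817 of 10599. Without the replicate block the counts of members were 15, 12 and 5, beside 3234, 2135 and 746 of all 10599 genes. A single flask leaves no residual degrees of freedom, so no calls could be made without a replicate. The median change of the members without either replicate ranged from -0.12 to -0.03 in G2M against G1, from -0.05 to -0.02 in S against G1 and from -0.16 to -0.15 in G2M against S. With library size alone these medians were 0.02, 0.06 and -0.11. Without the 5% deepest cells they were -0.16 in G2M against G1 and -0.09 in S against G1. In S against G1 the median was 0.00 with phases scored on thinned cells, -0.07 with sums of thinned cells, -0.11 with a mitochondrial share under 15%, 0.06 with 500 genes and -0.04 with DESeq2. In G2M against S it was -0.16 with RLE factors, -0.17 with the updated list, -0.16 with phases scored on thinned cells, -0.13 with sums of thinned cells, -0.11 with a mitochondrial share under 15%, -0.12 with a hashtag limit of 100, -0.18 with 500 genes and -0.16 with DESeq2.

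The median member share per cell, 0.347%, was 0.335% with a mitochondrial share under 15% and 0.376% with 500 genes. The inducible share of the pairs, 2.36%, was 1.84% in thinned cells. Members past the flask ratio numbered 0 with mean LogNorm values, 4 with no minimum share of cells, 1 without the deepest cells and 1 with 500 genes, beside 2. In the same order, 0%, 48.5%, 10.4% and 7.17% of all genes tested were past it, beside 9.38%. The co-variation index, 2.10 over both flasks, was 1.58 with a mitochondrial share under 15%, 2.17 with 500 genes, 2.38 with LogNorm values, 1.90 within G1, 2.51 within S and 1.90 within G2M. The median pairwise r, 0.034, was 0.019, 0.035 and 0.028 under the first 3 of these, 0.027, 0.044 and 0.028 within G1, S and G2M, 0.032 without the deepest cells, 0.036 with a hashtag limit of 100 and 0.032 with a second thinning. The r with the S score, 0.20, was 0.02 with a mitochondrial share under 15% and 0.25 with 500 genes. The r with the G2M score, 0.07, was -0.02, 0.11 and, with LogNorm values, 0.10. Each call of a single member was looked up in 12 alternatives, and every pair of call and alternative was counted once. Of these pairs 338 kept the call and 57 lost it. In 1 pair, PSMG3 in S against G1 with sums of thinned cells, the value reversed, to -0.01. The cause of these differences was not tested.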
